A study of Drosophila montana and Drosophila virilis with 24 samples.

Results

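Cold hardening in *Drosophila virilis* was measured as the difference between 3 arrays of flies held for 1 h at 0°C and 3 arrays of control flies held at 19°C. These 6 arrays, chosen by their labelled species and treatment, are 6 of the 24 in the series, which also holds cold-acclimated *D. virilis* and several cold treatments of *Drosophila montana*. Each array carried RNA of 1 pool of 10 whole-body, sexually mature females that were 20 days old, and 600 ng of RNA was labelled per pool. Control flies spent 20 days at 19°C with 22 h of light and 2 h of darkness, and hardened flies had the same 20 days before the hour at 0°C. The acclimated flies used below spent 14 days in control conditions and 6 days at 5°C. All pools were collected 5 to 6 h after lights on. The custom array held probes for 218 named genes, all designed from *D. montana*, so an imperfect match can dampen a value in *D. virilis*, and levels are not compared between species.

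Rapid cold hardening is the gain in cold tolerance that many insects show after a brief, mild chill. In insects, chilling disturbs membranes, ion balance and protein folding. Heat shock proteins refold damaged proteins, fatty acid desaturases alter membrane lipids, and sugars such as trehalose serve as fuel and can protect cells. Transcripts of many stress genes are known in *D. melanogaster* to accumulate during recovery at a warmer temperature; the labels mention no recovery period after the hour at 0°C.

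Values below are log2 fluorescence relative to the 75th percentile of the same array, averaged for each gene over its probes, and a change is hardened minus control. On the 6 arrays 75.5% to 82.3% of spots were well above background, the 75th percentile was 741.7 to 882.8 signal units and no spot was saturated. Of the gene names, 211 passed the filter on dim probes, and 210 of these had a probe above background on all arrays of both groups. The arrays lay on 3 slides, each with 1 control and 1 hardened array of *D. virilis*. Of the 6, a control and a hardened array stood apart. Control replicate 1 correlated more closely with hardened replicates 1 and 2 (r = 0.9984 and 0.9988 across genes) than with control replicates 2 and 3 (0.9974 and 0.9972). Hardened replicate 3 had the lowest sum of 6 eye markers on the linear scale, 58.0 times the 75th percentile, against 95.4 and 87.3 on the other hardened arrays and 76.6 to 92.1 on the controls. Both muscle markers measured (Mhc and sls) and both fat body markers measured (Adh and desat1) were present. The 2 nervous system markers measured, of 5 listed, were dim, with sums of 0.07 to 0.10 times the 75th percentile. None of the 5 ovary and yolk or the 5 male germline markers is among the gene names used here. In whole-body RNA, fewer cells of a type and less RNA per cell cannot be told apart.

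After an hour at 0°C a single gene passed the threshold, ninaD, which rose 1.61-fold. This was 1 of 211 genes, or 0.474%, by limma at an adjusted p under 0.05, and no fall passed. Missing the threshold does not show that a gene was unchanged. At an unadjusted p under 0.05 there were 22 genes (10.4%), 10 higher and 12 lower. The median change over all genes was -0.06, with 67 genes above 0 and 144 below it; scaling by the spike-in probes moved the median to 0.05 and the split to 138 and 73, so small changes have no firm sign. Changes ran from -0.49 for desat2 to 1.41 for b (black), and 186 genes lay within 0.25 of 0. The 95% interval of the change lay inside a 2-fold range in either direction for 208 of 211 genes, the exceptions being b, LanA and shakB. It lay within 0.5 log2 units of 0 for 177 genes. The median standard error was 0.10.

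The ninaD gene encodes a class B scavenger receptor that in *D. melanogaster* is needed to take up the carotenoids from which visual pigment is made. Its control arrays read -0.26, -0.59 and -0.63, and its hardened arrays 0.20, 0.29 and 0.07. All hardened arrays lay above all control arrays, and the control array nearest to them was replicate 1. The change was 0.68 ± 0.12 (SE, n = 3 per group; 95% interval 0.43 to 0.94; adjusted p = 0.0239, limma), and its 2 probes gave the same change, 0.68 each. Within slides 1, 2 and 3 the difference was 0.46, 0.88 and 0.70, and a fit that blocked on slide gave an adjusted p of 0.0172. The call was lost when control replicate 2, control replicate 3, hardened replicate 1 or hardened replicate 2 was left out, with changes of 0.63, 0.62, 0.68 and 0.63 and adjusted p-values of 0.150, 0.179, 0.0604 and 0.0760. It was also lost when the acclimated arrays were left out of the fit, when both probe orientations were averaged, and with normexp background correction. The probes of the opposite, dimmer orientation, which need not read the same transcript, gave 0.23 (adjusted p = 0.5005, limma; looked at after seeing the data). The acclimated arrays read -0.29, -0.54 and -0.34, all below the hardened arrays, and hardened minus acclimated was 0.58 ± 0.12 (adjusted p = 0.00307, limma).

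**Figure D1:**
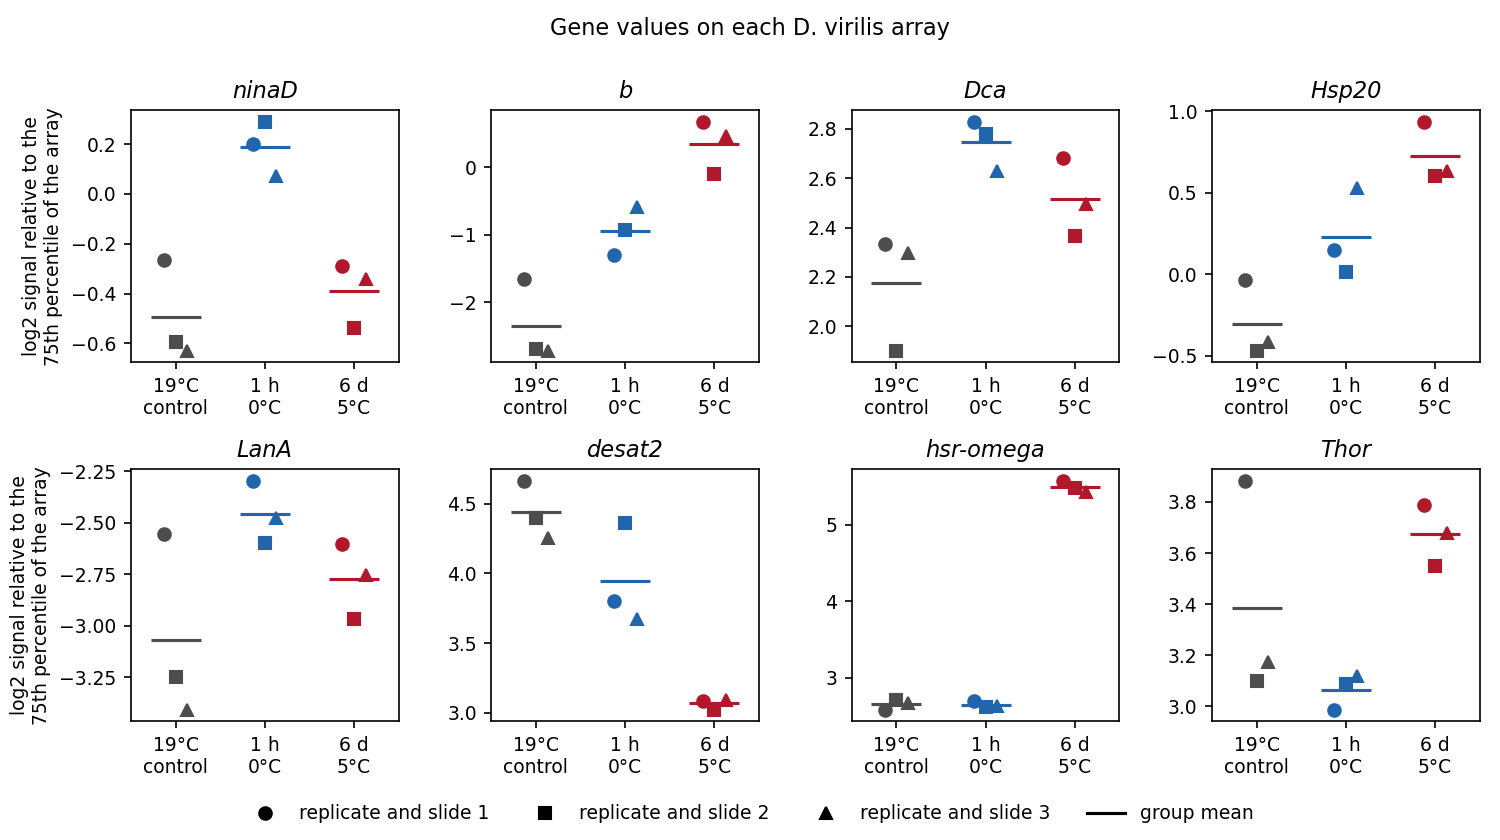
Value of 8 genes on each *D. virilis* array (vertical axis, log2 signal relative to the 75th percentile of the array) in control, hardened and acclimated flies; marker shapes give the replicate, which is also the slide, and bars are group means of 3 arrays. Hardened arrays lie above all controls for ninaD, b, Dca and Hsp20, and the control and hardened arrays of hsr-omega lie between 2.58 and 2.70, below the acclimated ones.

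The largest change of all was that of b, the aspartate decarboxylase that makes beta-alanine for the tanning and pigmentation of cuticle. Control arrays read -1.65, -2.69 and -2.72, and hardened arrays -1.31, -0.94 and -0.59. The groups did not overlap, but control replicate 1 was much closer to the hardened arrays than its fellows were. The change of 1.41 ± 0.30, a ratio of 2.65, missed the threshold (adjusted p = 0.0698, limma; 95% interval 0.75 to 2.06), although all 7 probes lay between 1.36 and 1.45. Within slides it was 0.34, 1.75 and 2.12. The adjusted p was 0.0273 when slide was blocked, and 0.00291 without control replicate 1, where the change was 1.76. With any of the other 5 arrays left out b did not pass, at changes down to 1.22 and adjusted p-values of 0.0604 to 0.319, and the dimmer orientation of its probes gave 0.35. Acclimated arrays were higher still, at 0.67, -0.10 and 0.47, so every hardened array lay between the other groups, and hardened minus acclimated was -1.29 ± 0.30 (adjusted p = 0.00671, limma).

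Dca, named for its induction by cold acclimation in *D. melanogaster* and encoding a regucalcin-like, calcium-binding protein, was the third of the leading genes. Its control arrays read 2.33, 1.90 and 2.30 and its hardened arrays 2.83, 2.78 and 2.63. All hardened arrays lay above all controls, with control replicate 2 the lowest. The change was 0.57 ± 0.13 (adjusted p = 0.0724, limma), a ratio of 1.48, and its 8 probes agreed within 0.56 to 0.60. Within slides it was 0.50, 0.88 and 0.33, and the blocked fit called it (adjusted p = 0.0273). Without control replicate 1 the change was 0.65 and passed (adjusted p = 0.0315), but it did not pass without any of the other 5, at 0.43 to 0.63 (adjusted p = 0.131 to 0.263), and the dimmer orientation gave 0.13. Frost (Fst), another gene that responds during recovery from cold in *D. melanogaster*, gave values of the other sign. Its control arrays read 0.77, 0.04 and 0.53 and its hardened arrays 0.33, 0.14 and 0.04, which overlapped, for a change of -0.28 ± 0.17 (adjusted p = 0.531).

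LanA, a laminin subunit of the basement membrane, was the remaining gene called with slide as a block (4 of 211 genes, 1.9%, the others being ninaD, b and Dca). Control arrays read -2.55, -3.25 and -3.41 and hardened arrays -2.30, -2.60 and -2.48. The groups overlapped through control replicate 1. The change was 0.61 ± 0.19 (adjusted p = 0.240, limma; 0.0438 with slide as a block), and 0.87 (adjusted p = 0.00431) without control replicate 1. It was 0.44 (adjusted p = 0.696) without control replicate 3 and did not pass in any of the 5 fits without another array. Leaving out control replicate 1 gave 7 called genes, ninaD, b, Dca, LanA, Hsp20, Jon25Bi and hiw, and leaving out hardened replicate 3 gave 1, ninaD.

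Hardened and control arrays did not overlap for 35 genes (16.6%), with the hardened arrays above for 11 (5.21%) and below for 24 (11.4%). The smallest p-value that an exact permutation test of 3 against 3 arrays can give is 0.1, so no gene could pass on its arrays alone. Among the 15 genes with the smallest p, those above the controls also included Jon25Bi, a gut serine protease, at 0.34 ± 0.11, and Ddc, the dopa decarboxylase that makes dopamine and serotonin, at 0.27 ± 0.09. Those below included sbb, a nuclear regulator, at -0.36 ± 0.10, and hiw, a ubiquitin ligase that limits synapse growth, at -0.40 ± 0.12. Btk29A, a Tec-family kinase, was at -0.26 ± 0.08. None of these 5 passed the threshold (adjusted p = 0.240 each, limma).

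**Figure D2:**
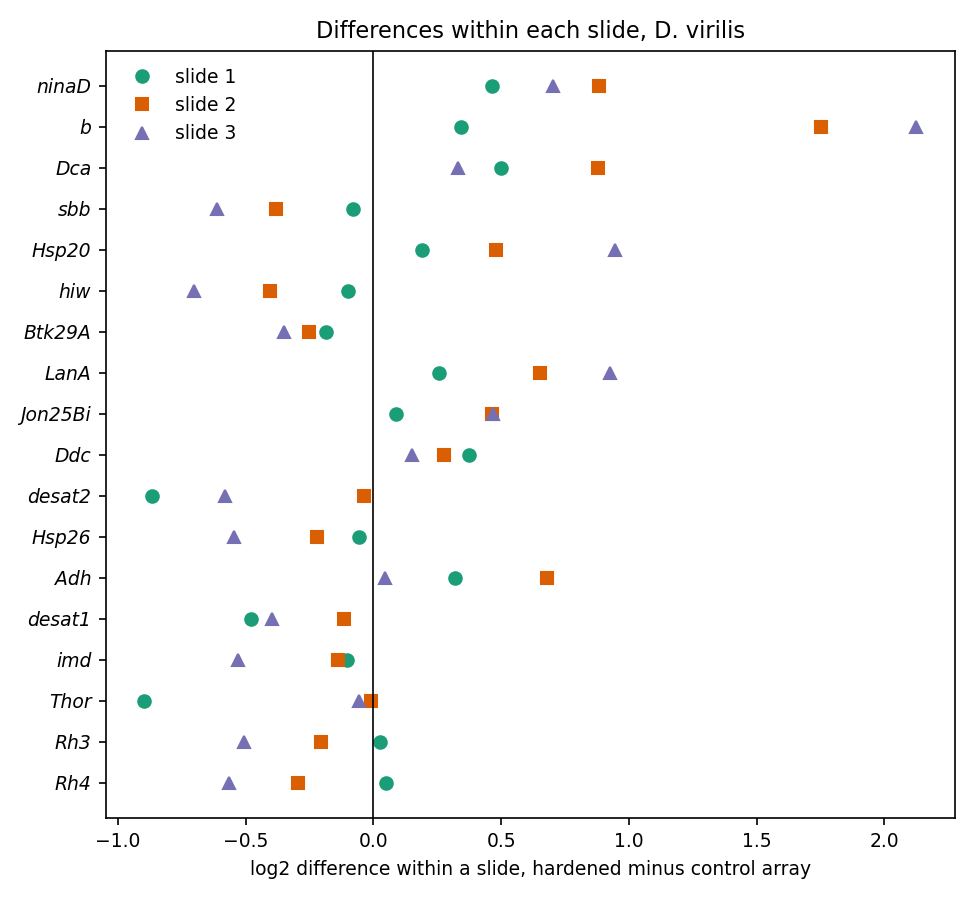
Difference between the hardened and the control array of the same slide (horizontal axis, log2) for the 15 genes with the smallest p and for Thor, Rh3 and Rh4; each marker is 1 slide. For b the 3 slides give 0.34, 1.75 and 2.12, for ninaD 0.46, 0.88 and 0.70, and the Thor difference of -0.90 on slide 1 stands away from -0.01 and -0.06 on the others.

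No heat shock or chaperone gene passed the threshold among the 22 measured (limma). Their median change was -0.01 against -0.06 over all genes, and 0.10 against 0.05 with spike-in scaling. At an unadjusted p under 0.05, 1 was higher and 2 were lower, beside 10 and 12 of all 211 genes. The noncoding stress RNA hsr-omega read 2.58, 2.70 and 2.66 on control arrays and 2.70, 2.61 and 2.63 on hardened ones. The groups overlapped fully, and the change of -0.00 ± 0.08 had a 95% interval of -0.17 to 0.17. On the acclimated arrays it read 5.57, 5.48 and 5.43, so that hardened minus acclimated was -2.85 ± 0.08 (adjusted p = 3.14e-10, limma).

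Hsp20, a small heat shock protein, was the member with the smallest p. It read -0.04, -0.47 and -0.42 on control arrays and 0.15, 0.01 and 0.53 on hardened arrays. The groups did not overlap, although control replicate 1 came close to hardened replicate 2. The change was 0.54 ± 0.16 (adjusted p = 0.240, limma), and acclimated arrays were higher again, by 0.49 ± 0.16 (adjusted p = 0.0334), a call that 9 of 19 alternatives ended, with differences of 0.38 to 0.54 and adjusted p-values of 0.0514 to 0.269. Another small heat shock gene, Hsp26, had the other sign, with 6.24, 6.36 and 6.43 on controls and 6.19, 6.14 and 5.88 on hardened arrays. The groups did not overlap, and the change of -0.27 ± 0.09, from 1 probe, did not pass (adjusted p = 0.265). The inducible Hsp70 relative Hsp68 gave -0.25 ± 0.11 (adjusted p = 0.406), most of it from slide 3 (-0.58, against -0.01 and -0.15).

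The remaining named chaperones lay close to 0. The Hsp90 gene Hsp83 was at 0.04 ± 0.09, the Hsp40 gene DnaJ-1 at -0.02 ± 0.07, the co-chaperone starvin (stv) at 0.06 ± 0.09 and the small heat shock gene Hsp67Bc at -0.07 ± 0.10, none of which passed (adjusted p = 0.826 to 0.948, limma). Their 95% intervals reached no farther than 0.31 from 0. Except for Hsp83, which differed by 0.11 ± 0.09 (adjusted p = 0.369), these genes were lower in hardened than in acclimated flies, Hsp67Bc by 1.33 ± 0.10 (adjusted p = 5.12e-06), stv by 0.63 ± 0.09 (adjusted p = 0.000428) and DnaJ-1 by 0.62 ± 0.07 (adjusted p = 8.6e-05). In the whole list 7 of 22 were lower in hardened than in acclimated flies and 0 were higher, beside 40 (19%) and 31 (14.7%) of all 211 genes.

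**Figure D3:**
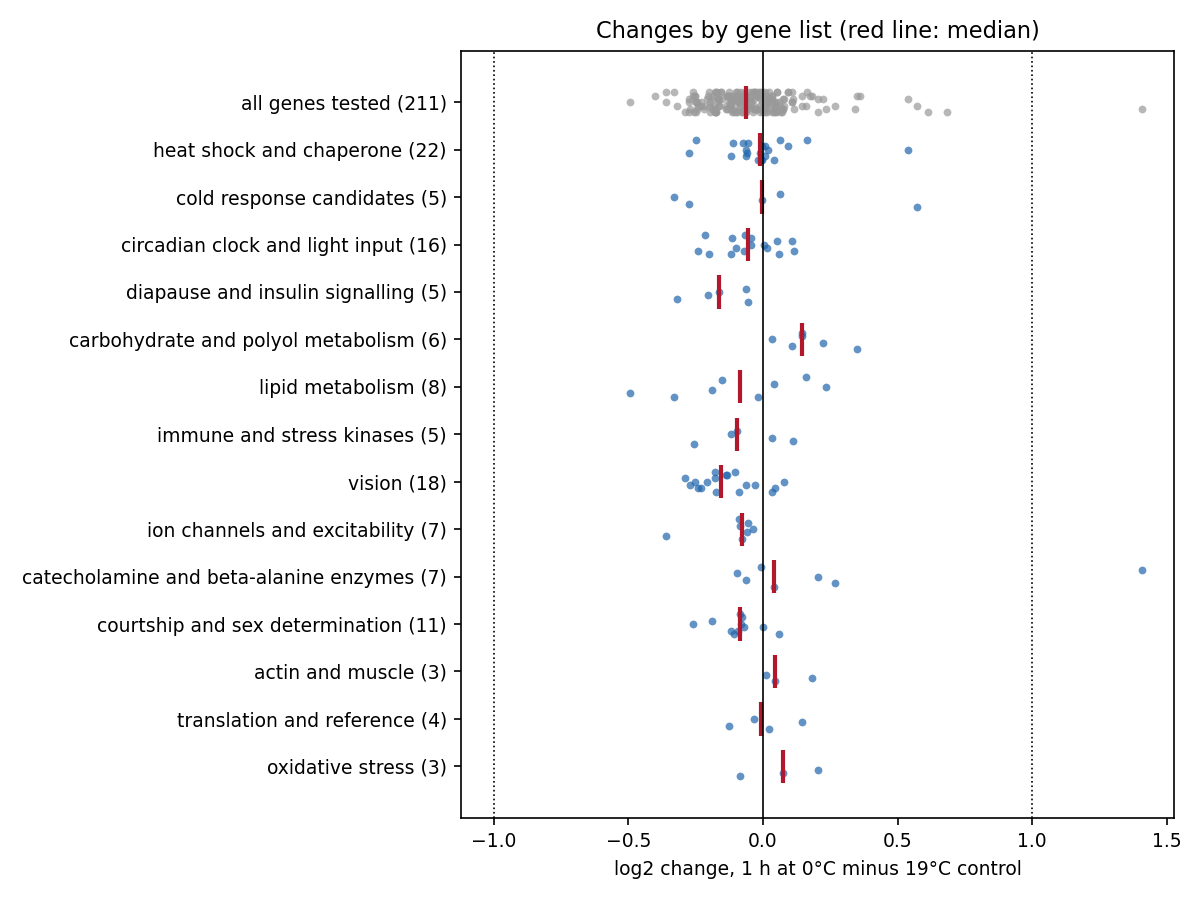
Change of each gene (points, log2, hardened minus control) in all genes tested and in 14 gene lists, with the number measured in brackets and the list median as a red line; dotted lines mark a 2-fold change. All list medians lie between -0.16 and 0.15, and b alone lies beyond a 2-fold change.

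No member of the 14 gene lists passed the threshold, and the called gene ninaD is on none of them. By list, the medians ran from -0.16 for vision and for diapause and insulin signalling to 0.15 for carbohydrate metabolism. At an unadjusted p under 0.05 the lists held at most 2 higher and 2 lower members each, beside 10 and 12 of all 211 genes. The other catecholamine and beta-alanine enzymes did not share the size of b. They ran from -0.10 for ebony (e), which joins beta-alanine to dopamine, to 0.27 for Ddc (given above). Tyrosine hydroxylase (ple) was at 0.04 (adjusted p = 0.905 for ple and 0.707 for e, limma). Of the 7 measured with b, 2 lay above the controls on all hardened arrays and 0 below, beside 11 (5.21%) and 24 (11.4%) of all 211.

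The 6 measured genes of carbohydrate and polyol metabolism all had changes above 0 under every scaling tried, with a median of 0.15 (0.25 with spike-in scaling) and slide medians of -0.02, 0.32 and 0.11. Of all 211 genes, 67 were above 0 (138 with spike-in scaling). Alcohol dehydrogenase (Adh) read 6.71, 6.36 and 6.62 on controls and 7.03, 7.04 and 6.67 on hardened arrays. The groups overlapped at hardened replicate 3, and the change of 0.35 ± 0.12 did not pass (adjusted p = 0.265, limma), while the dimmer orientation gave -0.18. Trehalase (Treh), which splits trehalose into glucose, read 1.04, 0.77 and 0.84 on controls and 1.04, 1.12 and 1.15 on hardened arrays. Its hardened replicate 1 barely exceeded control replicate 1, and the change was 0.22 ± 0.09 (adjusted p = 0.330). The phosphoglucomutase gene Pgm, which links glycogen to glycolysis, was at 0.11 ± 0.09 (adjusted p = 0.672). These 3 genes were higher in hardened than in acclimated flies, Treh by 0.79 ± 0.09 (adjusted p = 6.52e-05), Adh by 0.64 ± 0.12 (adjusted p = 0.00266) and Pgm by 0.53 ± 0.09 (adjusted p = 0.00174).

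Among 8 lipid genes, with a median of -0.08 (0.02 with spike-in scaling), neither desaturase named here passed. Changes were above 0 for 3 of the 8, up to 0.23, and below 0 for 5. At an unadjusted p under 0.05 (limma), 1 was higher and 2 were lower, beside 10 and 12 of all 211 genes. The desat2 gene, whose enzyme in *D. melanogaster* makes cuticular hydrocarbon precursors, read 4.66, 4.40 and 4.25 on controls and 3.80, 4.36 and 3.67 on hardened arrays. Hardened replicate 2 lay inside the control range, and the change was -0.49 ± 0.16 (adjusted p = 0.240, limma). Without that array it was -0.70 (adjusted p = 0.0426), and without hardened replicate 3 it was -0.36 (adjusted p = 0.715). The related desat1, the main acyl-CoA desaturase of the fly, read 6.27, 6.14 and 5.99 on controls and 5.79, 6.02 and 5.59 on hardened arrays. These overlapped at hardened replicate 2 as well, for a change of -0.33 ± 0.12 (adjusted p = 0.265). Acclimated arrays read 3.09, 3.02 and 3.09 for desat2 and 5.35, 5.18 and 5.32 for desat1, below every hardened array, and hardened minus acclimated was 0.88 ± 0.16 for desat2 (adjusted p = 0.00234) and 0.52 ± 0.12 for desat1 (adjusted p = 0.0063).

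Genes of the daily clock and of its light input had changes between -0.24 and 0.11 in all 16 measured, with a median of -0.06 (0.05 with spike-in scaling). The lowest was that of a gene also on the vision list. The feedback genes period (per), timeless (tim) and vrille (vri) were at 0.06 ± 0.10, 0.11 ± 0.11 and 0.11 ± 0.15, and the light receptor cryptochrome (cry) at -0.12 ± 0.09. All 4 overlapped between groups, and none passed (adjusted p = 0.657 to 0.826, limma). Each differed between hardened and acclimated flies, per by -0.61 ± 0.10 (adjusted p = 0.000727), vri by -0.82 ± 0.15 (adjusted p = 0.00174), tim by 0.42 ± 0.11 (adjusted p = 0.012) and cry by 0.41 ± 0.09 (adjusted p = 0.00726). The light-response gene jet and the casein kinase gene dco lay below the controls on all hardened arrays, at -0.20 ± 0.09 and -0.21 ± 0.11 (adjusted p = 0.406 and 0.470, limma). In this list 2 of 16 genes lay below and 1 above, beside 24 (11.4%) and 11 (5.21%) of all 211 genes.

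The 5 measured diapause and insulin genes all had changes below 0, with a median of -0.16, whereas 2 of them were above 0 with spike-in scaling. Of all 211 genes, 144 were below 0, and 138 were above 0 with spike-in scaling. The insulin receptor InR read -3.96, -4.01 and -3.97 on controls and -4.16, -4.28 and -4.10 on hardened arrays. The groups did not overlap, at a change of -0.21 ± 0.10 (adjusted p = 0.464, limma). Thor, the 4E-BP repressor of translation, read 3.88, 3.10 and 3.17 on controls and 2.99, 3.09 and 3.12 on hardened arrays. Control replicate 1 alone was high, and the change of -0.32 ± 0.17 (adjusted p = 0.522) was -0.07 without it. The couch potato gene cpo, linked to diapause in *D. melanogaster*, was at -0.06 ± 0.09 (adjusted p = 0.827).

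Of 18 vision genes, 15 had changes below 0 (11 with spike-in scaling), beside 144 of all 211 genes (73 with spike-in scaling). The list median was -0.16, with 0 called by limma. At an unadjusted p under 0.05 the list held 0 genes, beside 22 (10.4%) of all 211. The median was 0.15 on slide 1, -0.17 on slide 2 and -0.44 on slide 3, which holds the array with the lowest eye marker sum. All 6 eye markers are on this list, so the marker sum and the list median share values. The ultraviolet opsin Rh3 read -0.71, -0.45 and -0.67 on controls and -0.68, -0.66 and -1.18 on hardened arrays. Hardened replicate 3 alone was low, and the change of -0.23 ± 0.14 (adjusted p = 0.531, limma) was -0.06 without it. Rh4, the other ultraviolet opsin, went from -0.27 ± 0.16 to -0.08 in the same way. For the called gene ninaD, which is not on this list, the change without hardened replicate 3 was 0.74 (adjusted p = 0.0357, limma).

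**Figure D4:**
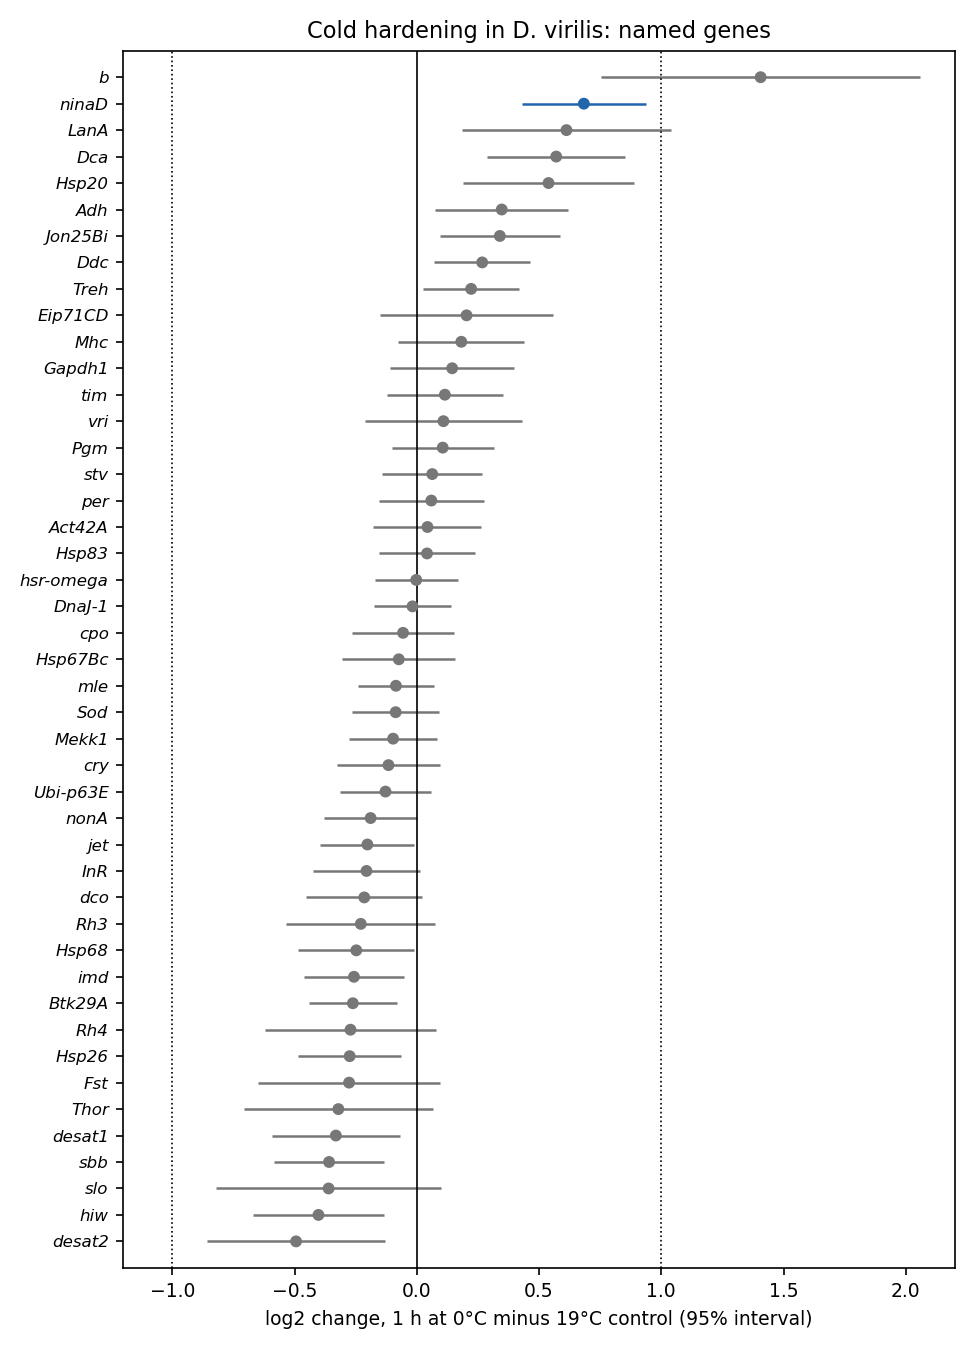
Change (horizontal axis, log2, hardened minus control) with its 95% interval for the named genes; blue marks the gene past an adjusted p of 0.05, grey the rest, and dotted lines a 2-fold change. The interval of ninaD runs from 0.43 to 0.94, that of b from 0.75 to 2.06 and that of hsr-omega from -0.17 to 0.17.

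The smaller lists gave no called gene either. Immune and stress kinase genes (5 measured) had a median of -0.10, and the immune adaptor imd, at -0.26 ± 0.09, lay below the controls on all hardened arrays (adjusted p = 0.272, limma). The 7 ion channel and excitability genes all had changes below 0, beside 144 of all 211 genes, with a median of -0.08. With spike-in scaling 6 of 7 were above 0, beside 138 of all 211. The calcium-activated potassium channel slo gave the largest change of this list, -0.36 ± 0.21 (adjusted p = 0.531). Of the 11 courtship and sex determination genes, Btk29A (given above), nonA and the helicase gene mle lay below the controls on all hardened arrays. Over all 211 genes, 24 (11.4%) did so. In this list 10 of 11 changes were below 0, and 3 of 11 with spike-in scaling, beside 144 and 73 of all 211 genes. The changes of nonA and mle were -0.19 ± 0.09 and -0.09 ± 0.07 (adjusted p = 0.453 and 0.657, limma). The actin gene Act42A and the muscle myosin gene Mhc were at 0.04 ± 0.10 and 0.18 ± 0.12 (adjusted p = 0.905 and 0.561). The ubiquitin gene Ubi-p63E and the glycolytic gene Gapdh1, both often used as references, were at -0.13 ± 0.08 and 0.14 ± 0.12 (adjusted p = 0.561 and 0.652), and superoxide dismutase (Sod) at -0.09 ± 0.08 (adjusted p = 0.695).

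Probe by probe, 0 of 842 probes passed in limma (96, or 11.4%, at an unadjusted p under 0.05; smallest adjusted p = 0.0803). Of 196 genes with more than 1 probe, 152 had all probes on the same side of 0. The probes of sls, a giant muscle protein, disagreed most, from -0.31 to 1.14.

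Hardened and acclimated flies of the same species differed in 71 of 211 genes (33.6%, limma), 31 higher and 40 lower in hardened flies. Beside hsr-omega and Hsp67Bc, the smallest p-values belonged to CG6785 at -3.20 ± 0.11, to the dynamin gene shi at -1.24 ± 0.09 and to the eye-specifying gene ey at -1.22 ± 0.10 (adjusted p = 1.54e-09, 4.13e-06 and 5.25e-06). With normexp background correction 9 genes differed, and of the differences from acclimation given up to here those of hsr-omega and Treh still passed. Adh also failed with both orientations averaged, vri with the median over probes and tim without acclimated replicate 3. Both cold groups are compared with the same 3 control arrays, which drop out of this contrast.

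The same hour at 0°C was also given to *D. montana*, with 3 arrays of its own controls. The response differed between the species in 1 of 209 genes (0.478%, limma interaction), Eip71CD, a methionine sulfoxide reductase that repairs oxidised proteins. In *D. virilis* its controls read 0.47, 0.24 and 0.31 and its hardened arrays 0.39, 0.28 and 0.96. These overlapped, and only hardened replicate 3 was high. Acclimated *D. virilis* flies read lower, with hardened minus acclimated at 1.57 ± 0.16 (adjusted p = 3.48e-05, limma). In *D. montana* the controls read 2.24, 2.67 and 2.07 and the hardened arrays -0.87, 0.25 and 1.097, all below the controls but widely spread. The change of 0.20 in *D. virilis* set against -2.17 in *D. montana* gave a difference of 2.37 ± 0.51 (adjusted p = 0.0253; 0.00821 when slide was blocked). The call was lost in 7 of 12 fits with an array left out, at adjusted p-values of 0.0565 to 0.118: without *D. montana* control replicates 1 or 2, its hardened replicates 1 or 2, *D. virilis* control replicates 2 or 3, or its hardened replicate 3.

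**Figure D5:**
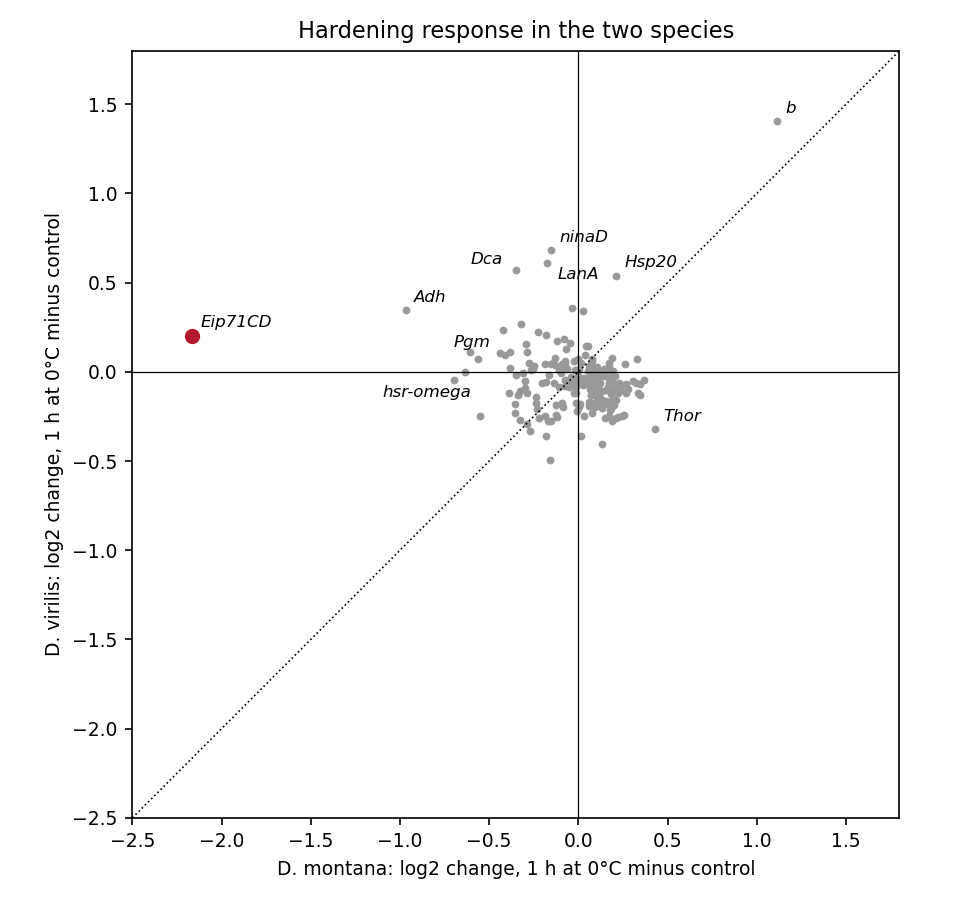
Change after 1 h at 0°C (log2, hardened minus control) in *D. montana* (horizontal axis) and *D. virilis* (vertical axis) for 209 genes, with equal change on the dotted line; red marks Eip71CD, the gene whose response differed at an adjusted p under 0.05. Eip71CD lies at -2.17 and 0.20, b at 1.12 and 1.41, and ninaD at -0.15 and 0.68.

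The next genes, with an adjusted p of 0.126 each, were Pgm with a difference of 0.55 ± 0.15, Adh with 1.31 ± 0.39, Thor with -0.75 ± 0.23 and Dca with 0.92 ± 0.28. For Adh the change was 0.35 in *D. virilis* and -0.97 in *D. montana*, and for Dca 0.57 and -0.35. The hsr-omega change was -0.00 in *D. virilis* and -0.63 in *D. montana* (difference 0.63 ± 0.21, adjusted p = 0.160). The b change was alike in sign, 1.41 and 1.12, with a difference of 0.29 ± 0.95 (adjusted p = 0.878; 95% interval -1.67 to 2.25). The ninaD changes differed in sign between the species, but their difference did not pass. With an array left out that difference ran from 0.61 to 0.99 and passed in 0 of 12 fits (adjusted p = 0.0585 to 0.456, limma interaction). For the other stress, clock and lipid genes followed above, differences ran from -0.49 ± 0.19 for Hsp68 to 0.72 ± 0.40 for vri (adjusted p = 0.216 and 0.395), and those of per, cpo, desat1, Fst and Hsp67Bc were -0.02, -0.02, -0.06, -0.11 and -0.16.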

How the data were processed

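The authors deposited scanner output of a custom 1-colour Agilent array as spot intensity, and the file headers name Feature Extraction 10.7.1.1. Processed signals are corrected for background within each array and are not normalized between arrays. A value table on the same intensity scale was deposited too (1850 rows, column medians 69.4 to 72.7, normalization not given in the sources used here), used as an alternative. Its rows match the probes in name order (r at least 0.9960).

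Here, log2 signals were averaged over up to 8 spots per probe, without control spots and outlier flags, and the 75th percentile of the array was subtracted. The brighter orientation of each of 925 probe pairs was kept. The dimmer probe of a pair has the opposite orientation and need not read the same transcript, so its values cannot decide a gene's change. A probe entered a gene's average if every array of some group had it well above background, with genes taken by the gene name in the probe name. Of 218 names, 159 are symbols of *D. montana* in assembly ASM3504440v1, which served for names only. limma 3.58.1 (R 4.3.3) was fitted to the 9 *D. virilis* arrays, or all 24 for the species, with Benjamini-Hochberg adjustment over all genes tested. The procedure was tested on simulated data. The 3 arrays per group limit the precision.

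Members and lists were chosen with earlier results of these data known. Named genes were the called gene, the 15 smallest p-values, the 2 smallest of each of 14 lists, the 5 largest changes in each direction, 17 stress, clock and metabolic genes, and the 5 smallest p-values of the comparisons with *D. montana* and with acclimation. Genes beyond these are named only as exceptions to a count or as fellows of b, chosen after their values were seen. Probe and promoter sequences were not used here. Replicate numbers, which are slide numbers in *D. virilis*, were checked for pairing. Deviations of same-numbered arrays correlated at -0.14, 0.24 and 0.16, and those of differently numbered arrays at -0.37 to 0.32. With 3 arrays per group these values cannot decide whether slides matter. The main fit did not pair the arrays, and fits with slide as a block are given beside it. Alternatives covered scaling, background correction, orientation, filters, blocks, array weights and each array left out. normexp used median signals, since the files give no mean signal.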

Additional observations from a re-analysis of the deposited data

Results flagged for a closer look

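The response of Eip71CD to 1 h at 0°C differed between the species by a test of the difference itself, at 2.37 log2 units (*D. virilis* minus *D. montana*). The difference was 3.03, 1.86 and 2.23 within slides 1, 2 and 3, and it rests mainly on *D. montana*. Its adjusted p of 0.0253 rose above the threshold in 10 of 25 alternatives, 7 of them fits with an array left out (up to 0.118). It stayed positive in every alternative run, from 1.86 without hardened *D. montana* replicate 1 to 2.84 without hardened *D. montana* replicate 3. In *D. virilis* the change was -0.01 without hardened replicate 3, against 0.20 with it.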

How the results depend on the processing

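The count of 1 gene for hardening against control became 5 with spike-in scaling, 2 with the 75th percentile over detected probes, 2 with the authors' deposited value table, 12 with array weights, 4 with the replicate block and 4 with slide as a block (the same fit here), and 0 with normexp, with the mean of both orientations and with only the arrays of the groups compared. It ran from 0 to 7 with 1 array left out. In the alternatives chosen after seeing the data it was 0 with the dimmer orientation only (168 genes, 14 at an unadjusted p under 0.05) and 1 without the acclimated array marked for evaluation by the scanner software. ninaD kept its sign in all of these that gave it a value, and lost its call with normexp (adjusted p = 0.960), both orientations (0.0732), only the groups compared (0.0782) and the dimmer orientation (0.5005, at 0.23). The 0 probes became 26 with spike-in scaling, 15 with detected probes, 11 with the value table, 23 with either block and 46 with array weights, and 0 to 32 with an array left out. For the species difference the count of 1 became 2 with spike-in scaling, quantile normalization, detected probes and the value table, 24 with array weights, 0 with normexp, both orientations and only the groups compared, and 0 to 3 with an array left out. The 71 genes that differed from acclimation became 45 with spike-in scaling and 9 with normexp, and 51 to 65 with an array left out. The causes were not tested, beyond fewer arrays where arrays were left out. The replicate block added Dca, b and LanA to ninaD.

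Of 1941 values of named genes under alternatives, 72 had the other sign, all of them of differences that did not pass. In hardening against control, spike-in scaling gave 0.012 for Mekk1, 0.024 for mle, 0.023 for Sod, 0.11 for hsr-omega, 0.035 for Hsp67Bc, 0.092 for DnaJ-1 and 0.053 for cpo, and detected probes gave 0.070 for hsr-omega, 0.055 for DnaJ-1 and 0.016 for cpo. normexp gave 0.00016 for Sod, 0.072 for hsr-omega, 0.046 for DnaJ-1, -0.14 for per and -0.19 for tim. Both orientations gave 0.0054 for hsr-omega, -0.023 for Hsp83, 0.022 for DnaJ-1 and -0.037 for vri. The dimmer orientation gave -0.18 for Adh, 0.016 for jet, 0.014 for Rh3, -0.00012 for Mhc, -0.014 for Gapdh1, 0.013 for hsr-omega, -0.089 for Hsp83, 0.061 for DnaJ-1 and -0.072 for vri. The median over probes gave 0.0025 for hsr-omega, no filter gave -0.011 for per, and array weights gave 0.013 for Hsp67Bc. With an array left out the change ran from -0.0029 to 0.088 for Act42A, -0.037 to 0.026 for hsr-omega, -0.030 to 0.11 for per, -0.0037 to 0.11 for Hsp83, -0.045 to 0.0054 for DnaJ-1, -0.0056 to 0.34 for Eip71CD and -0.13 to 0.023 for Hsp67Bc. For the species difference, spike-in scaling gave 0.093 for Hsp67Bc, 0.14 for Fst, 0.19 for desat1, 0.23 for per and 0.23 for cpo. Quantile normalization gave 0.013 for desat1 and 0.034 for cpo, detected probes 0.017 for per and 0.016 for cpo, and the deposited values 0.018 for desat1 and 0.037 for cpo. normexp gave 0.030 for desat1 and -0.18 for tim, and array weights 0.034 for desat1. With an array left out it ran from -0.25 to 0.12 for desat1, -0.34 to 0.18 for Fst, -0.13 to 0.081 for per, -0.55 to 0.79 for b and -0.098 to 0.049 for cpo. Hardened minus acclimated Hsp83 was -0.041 with normexp and -0.041 with both orientations.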
